A study of Mus musculus with 28 samples.

Results

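The 10 genes described here belong to the Toll-like receptor (TLR) and NF-kB pathway and were measured by bulk RNA-sequencing of mouse tail tendon fascicles. They were chosen by name as receptors (Tlr2, Tlr4, Tlr7), co-receptors (Cd14, Ly96), the shared adaptor (Myd88), a subunit of NF-kB (Nfkb1) and regulators that hold the pathway back or are induced by it (Nfkbia, Nfkbiz, Tnfaip3), and all 10 were found among the 25719 genes of the deposited table. Homogenized fascicles of mice on a C57BL/6 background (C57Bl6/J in the study's own summary) were compared between Fosl-2(Tg) mice, a model of systemic sclerosis, and non-transgenic wild-type (WT) controls from the same breeding. In Fosl-2(Tg) mice a randomly inserted vector carries murine Fosl2 (exons 1 to 4), which encodes an AP-1 transcription factor, under the MHC class I promoter H2Kb, so that expression is not restricted to tendon cells. The Early stage held 7 WT and 8 Fosl-2(Tg) mice of 6 to 8 weeks, all male, and the Established stage held 6 WT and 7 Fosl-2(Tg) mice older than 14 weeks, with 1 male in each genotype. Stage, age and sex therefore cannot be told apart, and each library came from 1 mouse.

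TLRs are pattern recognition receptors that bind microbial products and molecules released from damaged cells and matrix. Tlr2 and Tlr4 act at the cell surface and Tlr7 in endosomes, where it detects single-stranded RNA. Cd14 hands lipopolysaccharide to the complex of Tlr4 with Ly96 (MD-2). Most TLRs signal through Myd88 to the IKK complex, which marks the inhibitor IkBa, the product of Nfkbia, for degradation and so frees NF-kB dimers to enter the nucleus. Nfkb1 encodes the p105 precursor and p50 subunit. Nfkbia and Tnfaip3 (A20, a ubiquitin-editing enzyme) are themselves induced by NF-kB and close a negative feedback loop, while Nfkbiz (IkB-zeta) is an inducible nuclear protein that binds p50 and turns a subset of target genes on or off. In connective tissue these genes are expressed by macrophages and other immune cells and also by stromal cells.

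To show the sequence next to these genes, promoter windows were read from a RefSeq table (mouse build GRCm38.p6, 250 bases before to 50 after each annotated start), which held 4 of the 10 genes, namely Tlr2, Myd88, Nfkbia and Tnfaip3. They were searched on both strands for the NF-kB motif (GGG, then 5 bases of any kind, then CC) and the AP-1 motif TGANTCA, since NF-kB and the transgene product Fosl-2 belong to the families that bind them. The following matches are shown 5′ to 3′ on the strand of the gene, which is the minus strand in each case, with the matched letters in capitals and positions counted from the start base as 0.
Tlr2, NF-kB motif at -173 to -164, chr3:83841762-83841791: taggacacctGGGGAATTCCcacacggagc
Nfkbia, NF-kB motif at -29 to -20, chr12:55492657-55492686: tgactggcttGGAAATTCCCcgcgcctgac
Tnfaip3, NF-kB motif at -12 to -3, chr10:19015403-19015432: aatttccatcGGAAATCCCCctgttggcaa
Tnfaip3, AP-1 motif at -136 to -130, chr10:19015529-19015557: aaatgcccaggTGACTCAcgcggggacac

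With matches that overlap each other counted separately, the NF-kB motif occurred 5 times in the Tlr2 window, 2 times in the Nfkbia window, and 6 and 2 times in the windows of 2 annotated Tnfaip3 starts. The AP-1 motif occurred 1 time, at Tnfaip3, and the Myd88 window held neither motif. The NF-kB motif is loose, as it was present in 50.8% of all 32851 promoter windows, whereas the AP-1 motif was present in 7.81%. A match describes letters and not a bound site.

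To place the genes by abundance, levels were expressed as CPM (counts scaled to library size) per kilobase of annotated exon (GRCm39), which is the only scale on which genes are compared with each other here. The length joins all exons annotated for a gene and can exceed the transcript that is made. It was 12848 bases for Nfkb1 and 9711 for Tnfaip3, against 1937 for Nfkbia and 1732 for Cd14. The order below therefore depends on the annotation as well as on RNA. Nfkbia was highest in all 4 groups. In established WT tendon it reached 29.8 ± 6.73 CPM per kb (mean ± SD, n = 6 mice), followed by Cd14 at 10.5 ± 1.81, Nfkb1 at 8.22 ± 0.727, Tlr4 at 5.64 ± 1.05 and Nfkbiz at 5.22 ± 0.624. Myd88 at 3.84 ± 0.58, Tlr2 at 3.71 ± 0.506, Tlr7 at 2.71 ± 0.531, Ly96 at 1.42 ± 0.419 and Tnfaip3 at 1.09 ± 0.158 CPM per kb completed the order. In this group, the ranges of neighbours in the order did not overlap between Nfkbia and Cd14, between Nfkb1 and Tlr4 and between Tlr7 and Ly96, and overlapped for all other neighbours. Tlr4 moved from the fourth place in established WT to the second in established Fosl-2(Tg) mice, where its 10.4 ± 3.89 CPM per kb (n = 7) overlapped the range of Cd14 (9.67 ± 1.09). Ly96 rested on few reads, with 17 to 150 counts per library, so its values are the least precise of the 10.

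**Figure D1:**
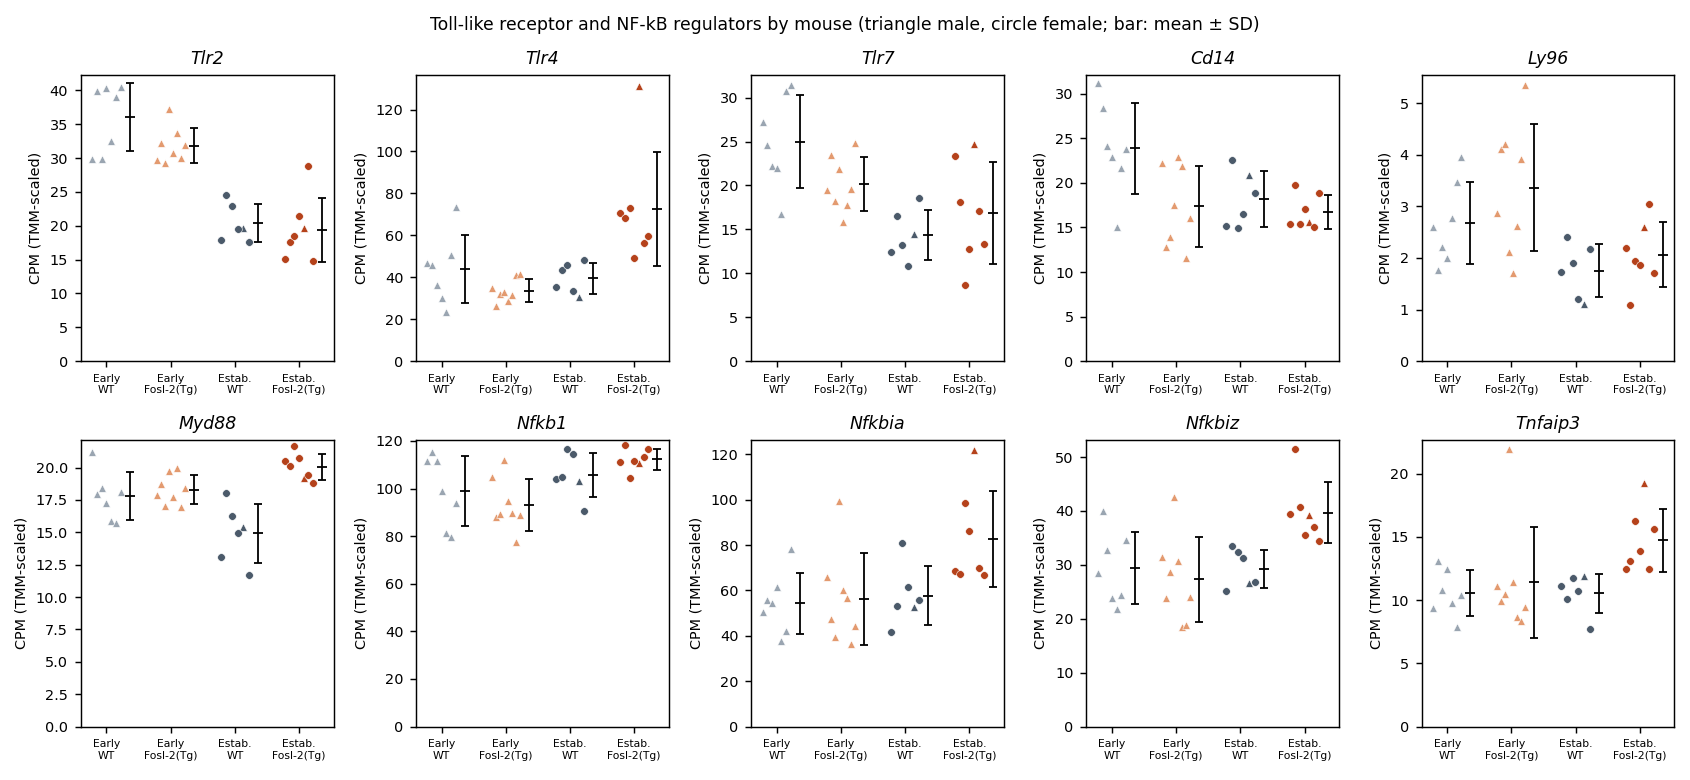
CPM of the 10 genes in each of the 28 mice (y axis, TMM-scaled, starting at 0) by group on the x axis, with triangles for males, circles for females and bars for the mean ± SD. Tlr4, Myd88, Nfkbiz and Tnfaip3 lie higher in all 7 established Fosl-2(Tg) mice than in any established WT mouse, whereas the genotypes overlap for all 10 genes at the Early stage.

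Total counts per library ranged from 9645598 to 66894396. The check of the labels was weak, since Fosl2 itself did not pass the test at the Early (log2 fold change 0.20 ± 0.24 (SE), adjusted p = 0.918) or the Established stage (0.38 ± 0.15, adjusted p = 0.142). It lay above the WT mean in 7 of 7 established Fosl-2(Tg) mice, but in 0 of 7 above every WT mouse. At the Early stage it lay above the WT mean in 4 of 8 Fosl-2(Tg) mice. Reads of the transgene and of the endogenous gene cannot be told apart in these counts. Tenocyte markers were detected in every library, and neutrophil, B cell and T cell marker lists summed to at most 10.5, 2.03 and 1.81 CPM. In established Fosl-2(Tg) mice the summed tenocyte markers lay between 5088 and 78600 CPM, below the 94080 to 188500 CPM of their WT controls without overlap. The most abundant genes of this list were Col1a1 (mean 12950 CPM in Fosl-2(Tg) and 73460 CPM in WT mice) and Col1a2 (8647 and 40700 CPM).

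The first question was whether pathway genes differed between genotypes at the Established stage. In established Fosl-2(Tg) tendon, the receptor Tlr4, its adaptor Myd88 and the NF-kB regulators Nfkbiz and Tnfaip3 rose by 1.35- to 1.85-fold, and the other 6 did not pass the test. These 4 of 10 genes called higher compare with 3.14% of the 15862 genes tested that were called higher at this stage, at a false discovery rate of 0.05 by edgeR's quasi-likelihood test (Benjamini-Hochberg, adjusted over the whole table). No member was called lower, beside 3.37% of the genes. Of the 10 genes, 8 had a positive log2 fold change, and the median was 0.33 against 0.01 over all genes tested. Tlr4 and Myd88 also belong to a macrophage-activation list that the study picked on these samples, so their direction is not independent of that choice. All 10 genes were also chosen with earlier results of these data known. Such shares, here and below, therefore describe the genes and do not test them. In whole tissue, a change in the number of cells that express a gene and a change in RNA per cell cannot be told apart.

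Among the receptors, Tlr4 ranged from 30.8 CPM over a median of 39.3 to 48.5 CPM in established WT mice (n = 6) and from 49.1 over 68.4 to 131 CPM in Fosl-2(Tg) mice (n = 7). All 7 transgenic mice were above every WT mouse, though the lowest of them by only a small margin, and 1 mouse, the sole transgenic male, stood far above the rest. The log2 fold change was 0.89 ± 0.21 (SE; adjusted p = 0.0276), and 0.61 ± 0.13 (adjusted p = 0.0252) among females alone. Tlr2, which detects bacterial lipoproteins, ranged from 17.6 over 19.6 to 24.5 CPM in WT and from 14.8 over 18.6 to 28.8 CPM in Fosl-2(Tg) mice. The transgenic range enclosed the WT range, and the log2 fold change of -0.07 (2 standard errors either side: -0.35 to 0.22; adjusted p = 0.789) did not pass the test. Tlr7 ranged from 10.9 over 13.9 to 18.6 CPM in WT and from 8.70 over 17.1 to 24.7 CPM in Fosl-2(Tg) mice, again with the wider spread in the transgenic mice (log2 fold change 0.24, -0.20 to 0.67; adjusted p = 0.503).

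Neither of the co-receptors that work with Tlr4 passed the test. Cd14 lay between 15.0 and 22.6 CPM (median 17.7) in WT and between 15.0 and 19.8 CPM (median 15.6) in Fosl-2(Tg) mice, a log2 fold change of -0.11 with an interval of 2 standard errors from -0.34 to 0.12 (adjusted p = 0.549). The ranges were nearly the same, and the upper bound of 0.12 lay below the 0.48 that bounded the Tlr4 change from below at 2 standard errors. Ly96 lay between 1.11 and 2.41 CPM (median 1.82) in WT and between 1.10 and 3.05 CPM (median 1.94) in Fosl-2(Tg) mice. Its log2 fold change of 0.23 had a wide interval, from -0.26 to 0.72 (adjusted p = 0.570), and a difference was not established.

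Myd88, the adaptor used by most TLRs and by the interleukin-1 receptor, gave the clearest separation relative to its spread. It ranged from 11.7 over 15.2 to 18.03 CPM in established WT mice and from 18.8 over 20.1 to 21.6 CPM in Fosl-2(Tg) mice. The transgenic mice formed a narrow band just above the highest WT mouse. The log2 fold change was 0.43 ± 0.09 (adjusted p = 0.0201), 0.45 ± 0.10 (adjusted p = 0.0374) among females alone, and it passed the test with each of the 13 mice left out in turn (adjusted p at most 0.0493). Myd88 shares 628 exonic bases with Acaa1a, a peroxisomal thiolase gene on the opposite strand, and the sources used here do not state that counting used strand, so reads in that stretch could belong to either gene and the value of Myd88 is uncertain to that extent. The log2 fold change of Acaa1a was 0.24 ± 0.10 (adjusted p = 0.157).

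Nfkb1, the NF-kB subunit, did not pass the test. Its CPM ranged from 90.5 over 104 to 117 in established WT and from 105 over 111 to 118 in Fosl-2(Tg) mice. All but 1 of the transgenic mice fell inside the WT range, and the log2 fold change of 0.09 had an interval from -0.04 to 0.23 (adjusted p = 0.392).

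Of the 3 regulators, 2 passed the test. Nfkbiz ranged from 25.1 over 29.1 to 33.4 CPM in WT and from 34.4 over 39.2 to 51.5 CPM in Fosl-2(Tg) mice. The ranges were adjacent without overlap, and 1 transgenic female stood above the other 6 mice of its group. The log2 fold change was 0.44 ± 0.10 (adjusted p = 0.0259). Tnfaip3, whose promoter window carries both motifs printed above, ranged from 7.72 over 10.9 to 11.9 CPM in WT and from 12.5 over 13.9 to 19.3 CPM in Fosl-2(Tg) mice. Here too the lowest transgenic mouse lay just above the highest WT mouse, and the log2 fold change was 0.49 ± 0.13 (adjusted p = 0.0422). Among females alone, Nfkbiz (0.42 ± 0.11) and Tnfaip3 (0.45 ± 0.12) both missed the threshold at an adjusted p of 0.0620.

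Nfkbia, the classic feedback inhibitor, ranged from 41.9 over 54.5 to 80.9 CPM in WT and from 66.7 over 69.9 to 122 CPM in Fosl-2(Tg) mice. All 7 transgenic mice lay above the WT mean, but 1 WT mouse reached into their range and 3 of the 7 lay above every WT mouse. Its log2 fold change of 0.53 ± 0.17 was larger than that of Myd88 and did not pass edgeR's test (adjusted p = 0.0794), whereas it was called by DESeq2 (0.52 ± 0.18, adjusted p = 0.0401).

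**Figure D2:**
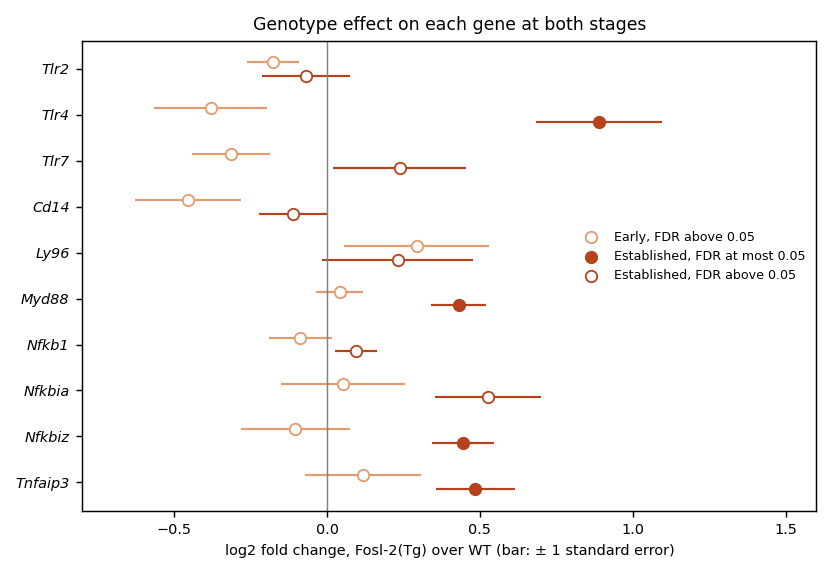
Log2 fold change of Fosl-2(Tg) over WT for each gene (x axis, points with ± 1 standard error) at the Early (light) and the Established stage (dark), filled where the false discovery rate is at most 0.05. The only filled points are Tlr4 (0.89), Tnfaip3 (0.49), Nfkbiz (0.44) and Myd88 (0.43) at the Established stage.

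The 4 genes without overlap between genotypes compare with 1.48% of all genes tested that lay higher without overlap. How firmly each call stood differed between the genes. Tlr4 lost its call without Fosl-2(Tg) replicate 1 or without WT replicate 1, 2, 4 or 5 (adjusted p from 0.0510 to 0.0609), and Nfkbiz without WT replicate 1, 5 or 6 (adjusted p from 0.0511 to 0.0591). Tnfaip3 kept its call in only 2 of 13 such fits, those without Fosl-2(Tg) replicate 4 or 6, with an adjusted p of at most 0.0865, whereas Nfkbia gained one without WT replicate 3 (adjusted p = 0.0444). With all 28 mice in 1 fit, Nfkbiz and Tnfaip3 lost their calls (adjusted p = 0.0759 and 0.0755), and Tnfaip3 also without a filter on low counts (adjusted p = 0.0581). Without Fosl-2(Tg) replicate 5, the male with 131 CPM, the log2 fold change of Tlr4 was 0.68 ± 0.13 (adjusted p = 0.0144). The same mouse had the highest Tnfaip3 (19.3 CPM), Nfkbia (122 CPM) and Tlr7 (24.7 CPM) of its group and the lowest tenocyte markers, with Scx, the transcription factor of the tendon lineage, at 6.64 CPM against 16.5 to 54.0 CPM in the other transgenic mice and Tnmd at 21.2 against 103 to 512 CPM. It also had the smallest library of its stage (9664327 counts). Of the macrophage markers, its Adgre1 (22.2 CPM) and Csf1r (196 CPM) were the lowest of its group, and its Cd68 (15.2 CPM) was not.

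The zero point of these changes depended on the scaling. Scaled by total counts alone, an alternative added once the values were known, the median of all genes moved to 0.33 on the log2 scale, 95.9% of the genes called were higher instead of 48.3%, and 6 members were called. Relative to that median, the log2 fold changes were 0.90 for Tlr4, 0.52 for Nfkbia, 0.48 for Tnfaip3, 0.44 for Nfkbiz, 0.43 for Myd88, 0.09 for Nfkb1, -0.08 for Tlr2 and -0.11 for Cd14, each within 0.014 of the values above. The signs of Tlr2 and Cd14 were thus negative with scaling factors and positive, at 0.25 and 0.22, with total counts alone.

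Macrophages are a main source of TLR transcripts, and their markers were compared beside these genes. Of 15 macrophage markers tested at the Established stage, 1 rose and 1 fell, with 13 positive and 2 negative values, 5 at an unadjusted p below 0.05 and a median of 0.19 against 0.01 over all genes. Unadjusted p-values below 0.05 were common among all genes at this stage, as an edgeR p of 0.0476 (Adgre1) gave an adjusted p of 0.184. Such counts at this stage, here and below, are therefore not read as a result about a list. The called markers were the scavenger receptor Cd163 (log2 fold change 1.07 ± 0.14, adjusted p = 0.00465) and the chemokine receptor Cx3cr1 (-1.81 ± 0.28, adjusted p = 0.00804). The general markers Csf1r (0.19 ± 0.12, adjusted p = 0.343), Adgre1 (0.44 ± 0.20, adjusted p = 0.184) and Cd68 (0.05 ± 0.20, adjusted p = 0.898) did not pass. The summed macrophage markers ranged from 813 to 1318 CPM in established WT and from 1016 to 1681 CPM in Fosl-2(Tg) mice, so the groups overlapped. Of 10 tenocyte markers, 4 were called lower and none higher, with 9 negative values, 1 positive value and a median of -0.89. The called markers were Scx (-1.28 ± 0.34, adjusted p = 0.0444), Tnmd (-2.03 ± 0.53, adjusted p = 0.0386), Col1a1 (-2.50 ± 0.63, adjusted p = 0.0356) and Col1a2 (-2.23 ± 0.57, adjusted p = 0.0367). Each of the 4 lost its call without Fosl-2(Tg) replicate 1, 2 or 3 and without WT replicate 1, 2, 4, 5 or 6 (adjusted p from 0.0509 to 0.0825). Scx also lost it without a filter on low counts (adjusted p = 0.0523). Among females alone each of the 4 kept it (adjusted p at most 0.0401). No blood or muscle marker was called, though the values within each list shared a sign and their sums overlapped between genotypes. The 4 tested of 7 erythroid markers were all positive (median 2.38, 3 at an unadjusted p below 0.05), and their list summed to 8.94 to 20.1 CPM in WT and 10.3 to 127 CPM in Fosl-2(Tg) mice. All 10 skeletal muscle markers were negative (median -1.74, 2 at an unadjusted p below 0.05), with sums of 64.4 to 17200 CPM in WT and 43.3 to 5586 CPM in Fosl-2(Tg) mice. Any part of these marker values in the rise of Tlr4, Myd88, Nfkbiz and Tnfaip3 was not tested.

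The wider pathway was read from 7 lists of receptors, co-receptors, adaptors and kinases, NF-kB and IKK subunits, inhibitors, target genes and endogenous ligands. Of 10 tested TLRs, 2 rose and 1 fell in established Fosl-2(Tg) tendon. Besides Tlr4, Tlr8, an endosomal RNA sensor on chromosome X, rose from 5.37 ± 1.55 to 9.92 ± 3.07 CPM (log2 fold change 0.90 ± 0.23, adjusted p = 0.0373) with overlapping ranges. Tlr3, the sensor of double-stranded RNA that uses the adaptor Ticam1 (TRIF) in place of Myd88, went the other way, from 8.59 ± 0.92 to 4.84 ± 1.35 CPM (-0.82 ± 0.19, adjusted p = 0.0271), and every transgenic mouse was below every WT mouse. The median of the TLR list was 0.15. None of the 9 co-receptors and trafficking factors was called in either direction (median -0.03).

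Among 19 adaptors and kinases, Myd88 rose and Traf3 fell, the latter from 62.7 ± 11.2 to 45.2 ± 6.41 CPM (-0.47 ± 0.12, adjusted p = 0.0371). Its ranges were adjacent without overlap, with the highest Fosl-2(Tg) mouse at 54.95 CPM and the lowest WT mouse at 55.08 CPM. Scaled by total counts alone, Traf3 had a log2 fold change of -0.14 and was not called (adjusted p = 0.336 by edgeR). Traf3 encodes an adaptor that links TLRs to interferon induction and restrains non-canonical NF-kB signalling. The median of this list was 0.02. All 8 subunits of NF-kB and the IKK complex had positive values, with a median of 0.12 and none called.

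All called inhibitors were higher. Of 16 inhibitors, 14 were tested, all 14 had a positive log2 fold change (median 0.23 against 0.01 over all genes), and 3 rose, namely Nfkbiz, Tnfaip3 and Tnip2. Tnip2 (ABIN-2), which partners with A20, rose from 22.2 ± 2.46 to 29.5 ± 2.57 CPM without overlap (0.42 ± 0.09, adjusted p = 0.0192), and it stayed called among females alone (0.43 ± 0.10, adjusted p = 0.0369). The count shares 3 of its genes with the 10 members, and of the 11 tested genes that are not members, 1 was called. Nfkbiz, on this list, can turn target genes on as well as off.

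A further list held 21 NF-kB target genes, such as the cytokines Il1b, Il6 and Tnf, and left out the induced genes Nfkbia and Tnfaip3, which stand among the inhibitors. Of these 21 genes, 13 were expressed highly enough to be tested, 7 were positive and 6 negative with a median of 0.05, 4 had an unadjusted p below 0.05 and none was called by edgeR. The lists were not tested against each other. None of the 12 immediate-early genes, an AP-1 and stress response list, was called either (10 positive, median 0.43). Of 7 endogenous TLR ligands tested, 2 fell, and the median was -0.56. These were Vcan, a matrix proteoglycan that signals through Tlr2, at 400 ± 197 CPM in WT and 183 ± 62.9 CPM in Fosl-2(Tg) mice (-1.12 ± 0.28, adjusted p = 0.0338), and Saa3, an acute-phase protein at the edge of detection (1.03 ± 0.551 and 0.293 ± 0.251 CPM; -1.89 ± 0.52, adjusted p = 0.0466). Traf3, Tlr8, Vcan and Saa3 did not pass among females alone (adjusted p from 0.0543 to 0.109), whereas Tlr3 did (adjusted p = 0.00860). Without Fosl-2(Tg) replicate 1, Tlr3, Tlr8, Traf3, Vcan and Saa3 each lost their call (adjusted p from 0.0570 to 0.0850). Other fits with 1 mouse left out ended calls of these genes as well.

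**Figure D3:**
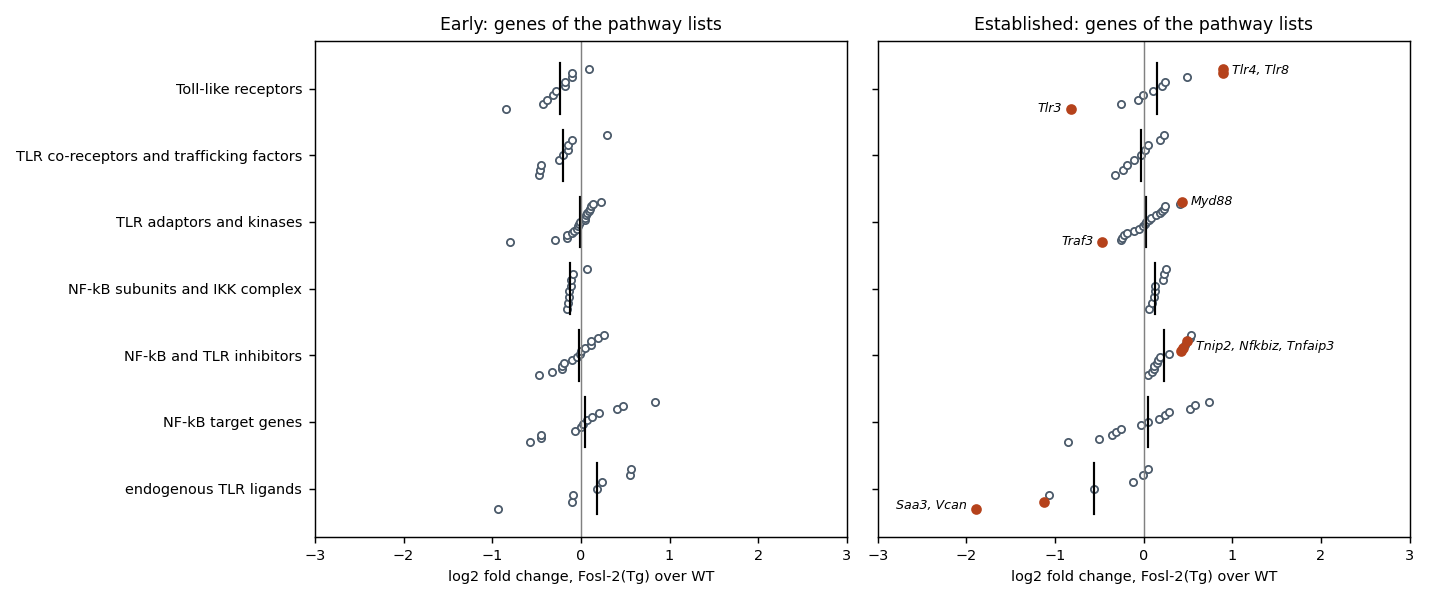
Log2 fold change of Fosl-2(Tg) over WT (x axis) of each tested gene in 7 pathway lists (rows) at the Early (left) and the Established stage (right), with genes at a false discovery rate of at most 0.05 filled and named and a black bar at each list's median. At the Established stage all 14 tested inhibitors lie to the right of 0 and 3 are filled, and no gene is filled at the Early stage. The induced inhibitors Nfkbia and Tnfaip3 are drawn with the inhibitors and not with the target genes.

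Next, the same genes were compared in the younger mice. At the Early stage none of the 10 genes was called by edgeR, beside 0.0396% of the 15138 genes tested (6 genes), and 2 members, Cd14 and Tlr7, had an unadjusted p below 0.05, beside 6.06% of all genes. With the replicate number as a block, 11 genes and no member were called, and DESeq2 called 25 genes and no member. The signs were mixed, with 4 positive and 6 negative and a median of -0.10.

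The receptors and Cd14 lay on the lower side in early Fosl-2(Tg) tendon. Cd14 ranged from 15.1 over 23.8 to 31.2 CPM in early WT (n = 7) and from 11.6 over 16.8 to 22.9 CPM in early Fosl-2(Tg) mice (n = 8). All 8 transgenic mice lay below the WT mean, and 3 lay below every WT mouse (log2 fold change -0.46 ± 0.17, adjusted p = 0.748 by edgeR). Tlr7 ranged from 16.7 over 24.7 to 31.5 CPM in WT and from 15.8 over 19.5 to 24.9 CPM in Fosl-2(Tg) mice (-0.31 ± 0.13, adjusted p = 0.771). Tlr4 ranged from 23.7 over 45.8 to 73.6 CPM in WT and from 26.3 over 32.4 to 41.6 CPM in Fosl-2(Tg) mice, so that the transgenic mice sat in the lower part of a wide WT range (-0.38 ± 0.19, adjusted p = 0.830). Tlr2 ranged from 29.8 over 39.1 to 40.5 CPM in WT and from 29.2 over 31.4 to 37.2 CPM in Fosl-2(Tg) mice (-0.18 ± 0.09, adjusted p = 0.834).

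The macrophage markers had mostly negative values at this stage. Of 15 markers, 14 had a negative log2 fold change, 9 an unadjusted p below 0.05 and none was called (median -0.40 against -0.01 over all genes). Their sum ranged from 1054 to 1624 CPM in early WT and from 938 to 1330 CPM in early Fosl-2(Tg) mice. The part of this in the values of Cd14 and the receptors was not tested.

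The adaptor, Nfkb1 and the regulators did not pass the test at the Early stage (adjusted p from 0.918 to 0.977). Myd88 ranged from 15.7 over 17.99 to 21.2 CPM in WT and from 16.9 over 18.2 to 19.97 CPM in Fosl-2(Tg) mice (0.04 ± 0.08, adjusted p = 0.948). The log2 fold changes were -0.09 ± 0.10 for Nfkb1, 0.05 ± 0.20 for Nfkbia, -0.10 ± 0.18 for Nfkbiz and 0.12 ± 0.19 for Tnfaip3. One transgenic mouse, replicate 4, had 99.6 CPM of Nfkbia and 21.9 CPM of Tnfaip3, far above the next mouse at 66.0 and 11.4 CPM, and without it both values turned negative, to -0.12 and -0.09. It also had the highest Nfkbiz of its group (42.6 CPM). Ly96 ranged from 1.77 over 2.60 to 3.95 CPM in WT and from 1.71 over 3.39 to 5.34 CPM in Fosl-2(Tg) mice (0.29 ± 0.24, adjusted p = 0.885).

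Whether the genotype effect itself differed between stages was tested in a fit of all 28 mice. The effect of the transgene on Tlr4 was higher at the Established than at the Early stage by 1.26 ± 0.29 on the log2 scale (adjusted p = 0.0119), and that on Myd88 by 0.38 ± 0.11 (adjusted p = 0.0383). These 2 of 10 members called higher compare with 3.43% of 16082 genes tested. For Myd88 the early effect was close to 0, whereas for Tlr4 the difference joined a positive established value to a negative early value that had not passed its own test. Without the 2 established males, Tlr4 still passed at 0.98 (adjusted p = 0.0282), and Myd88 did not. Acaa1a, the gene that overlaps Myd88, also passed this test (0.41 ± 0.12, adjusted p = 0.0402). The same was true of the macrophage marker Adgre1 (0.97 ± 0.23, adjusted p = 0.0132), which was not called at either stage. For Nfkbiz (0.54 ± 0.22, adjusted p = 0.121), Tlr7 (0.54 ± 0.25, adjusted p = 0.179), Nfkbia (0.47 ± 0.28, adjusted p = 0.293) and Tnfaip3 (0.36 ± 0.24, adjusted p = 0.350) a difference between stages was not established. The contrast is one between young males and older, mostly female mice.

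The control mice gave the level of these genes at both stages without the transgene. Tlr2 and Tlr7 were lower in established than in early WT tendon, 2 of 10 members beside 3.48% of genes called lower. Tlr2 fell from 36.0 ± 5.02 (n = 7) to 20.4 ± 2.78 CPM (n = 6) without overlap, as 1.22% of genes did (-0.82 ± 0.12, adjusted p = 0.000416), and Tlr7, a gene on chromosome X, from 25.0 ± 5.26 to 14.4 ± 2.81 CPM (-0.81 ± 0.19, adjusted p = 0.0120). Without the 2 established males both remained called, at -0.82 each. That fit set early males against established females, so it does not separate sex from stage. The macrophage marker Adgre1 was lower as well (-0.77 ± 0.17, adjusted p = 0.00835). Myd88 (-0.25 ± 0.08, adjusted p = 0.0693), Ly96 (-0.64 ± 0.26, adjusted p = 0.137) and Cd14 (-0.39 ± 0.16, adjusted p = 0.141) had lower values that did not pass, and Tlr4, Nfkb1 and the 3 regulators had an adjusted p from 0.564 to 0.994. The Established difference in Myd88 between genotypes was therefore measured against a WT level of 14.9 ± 2.26 CPM that lay below the 17.8 ± 1.85 CPM of early WT mice, and the established Fosl-2(Tg) level was 20.05 ± 0.986 CPM.

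Finally, the variation among mice of the same group was described. Deviations of log2 CPM from the group mean were correlated with the mean of the macrophage markers and with the mean of 12 immediate-early genes, which respond within minutes to cell stimulation or to tissue handling, for 20 relations per stage (two-sided permutation test within groups, Benjamini-Hochberg over the 20). At the Early stage, 1 relation passed by Pearson's r. Ly96 varied inversely with the immediate-early genes (r = -0.93, rho = -0.95, n = 15 mice, permutation p = 3e-05 and 2e-05, adjusted p = 0.0006 and 0.0004). It held without the 2 mice farthest from the median score (r = -0.94). At the Established stage the same relation had r = -0.49 and rho = -0.54 (n = 13, permutation p = 0.105 and 0.0779, adjusted p = 0.420 and 0.390) and did not pass. The permutations did not keep mice of the same replicate number together, although the deviations of such mice were positively correlated at the Early stage. The log2 CPM values share library depth, and Ly96 is the member with the fewest reads.

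Nfkb1 followed the macrophage markers at the Early stage without passing (r = 0.71, rho = 0.66, permutation p = 0.00737 and 0.0156, adjusted p = 0.0737 and 0.0617) and the immediate-early genes by rank alone (rho = 0.71, permutation p = 0.00294, adjusted p = 0.0294, against r = 0.53, permutation p = 0.0377, adjusted p = 0.126). None of the 20 established relations passed. Cd14 had the most positive r with the macrophage markers there (r = 0.61, rho = 0.58, permutation p = 0.0306 and 0.0527, adjusted p = 0.254 and 0.390). Tlr4 (r = -0.42, rho = -0.24, permutation p = 0.186 and 0.442, adjusted p = 0.465 and 0.899) and Nfkbia (r = -0.61, rho = -0.53, permutation p = 0.0381 and 0.0763, adjusted p = 0.254 and 0.390) had negative values, which did not pass. Without the 2 mice farthest from the median score, r was 0.65 for Cd14, -0.23 for Tlr4 and -0.42 for Nfkbia.

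**Figure D4:**
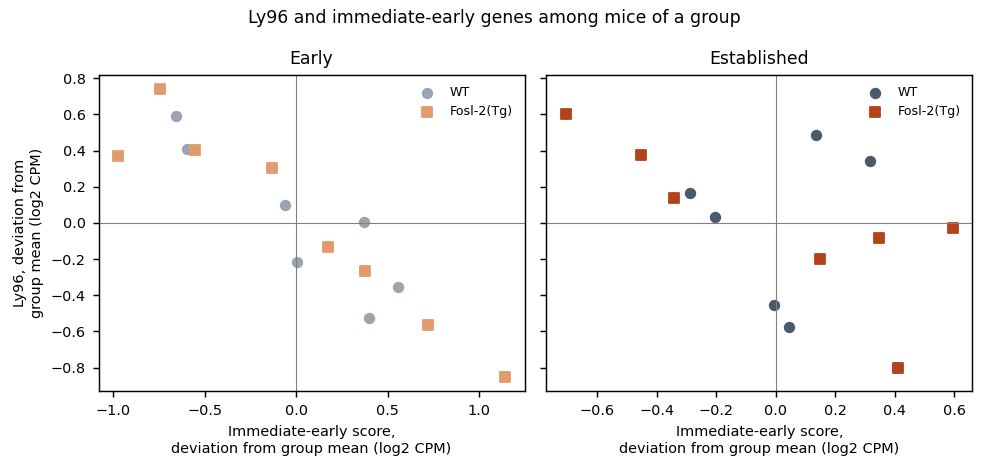
Deviation of Ly96 from its group mean (y axis, log2 CPM) against that of the immediate-early score (x axis, log2 CPM) in each mouse of the Early (left) and the Established stage (right), with circles for WT and squares for Fosl-2(Tg). The 15 early mice fall along a descending line (r = -0.93), and the 13 established mice scatter more widely (r = -0.49).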

How the data were processed

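RNA of tail tendon fascicles was sequenced from 28 mice in 4 groups, after ribosomal RNA depletion. STAR alignment to GRCm39 (GENCODE M26) and featureCounts gave the raw counts per gene that the authors deposited, with no normalization and with 1 file per mouse; versions and the strand setting are not given in the sources used here. Identifiers were matched to GENCODE M39 symbols for 25505 of 25719 genes. The 10 members, the pathway lists and the marker lists were chosen with earlier results of these data known, and the lists were written from general knowledge of the pathway.

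Within each stage, edgeR 4.0.16 (R 4.3.3) was run with TMM scaling, filterByExpr (minimum count 10) and the quasi-likelihood test, with p-values adjusted over the whole table (Benjamini-Hochberg) and a threshold of 0.05. Standard errors were derived from the F statistic. Differences between stages came from 1 fit of 4 groups. CPM per mouse were scaled over all 28 libraries. All 10 members passed the filter in every comparison. All members are named, and of each pathway list up to 4 other genes that were called, by smallest p. For correlations, 100000 permutations within groups were drawn (scipy 1.17.1), and 1e-05 is the smallest p that they can give. The fits were tested on simulated counts.

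At the Early stage, the deviations of mice that share a replicate number in the titles were positively correlated (0.145 to 0.405 over 7 pairs). Still, 0 of 7 correlated best with their own number, and the number was also fitted as a block. At the Established stage 2 of 6 pairs were at 0.0498 and -0.223, while the other 4 reached 0.292 to 0.69, and the number was taken as a name because not every pair exceeded 0.1. Titles do not say what a number stands for. p-values measure the spread between mice of a group. Library totals of 9645598 to 66894396 counts set the precision. No pair of libraries of a group was a duplicate (chi-square per degree of freedom at least 7.02). Y-linked genes matched the labelled sex in all 28 libraries. Alternatives were DESeq2 1.42.0, RLE scaling, other filters, sex as a covariate, females only, all mice in 1 fit, removal of muscle, erythroid and keratinocyte genes, and each mouse left out. Scaling by total counts alone was added after the data had been seen. The promoter table held 4 of the 10 genes. Endothelial and keratinocyte marker lists had no gene called at either stage (established medians -0.23 and -0.09). Figures were drawn with matplotlib 3.10.9.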

Additional observations from a re-analysis of the deposited data

Results flagged for a closer look

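In all, 4 values stood apart from the other mice of their group by Dixon's criterion, among 40 sets of 6 to 8 mice examined, where chance flags about 1 in 20 sets. In established Fosl-2(Tg) replicate 5, the sole transgenic male of its stage, Tlr4 was at 131.3 CPM and the next mouse at 73.3 CPM. Nfkbiz was at 51.54 CPM in established Fosl-2(Tg) replicate 2, with the next mouse at 40.8 CPM. Both flags of the Early stage fell on 1 mouse, Fosl-2(Tg) replicate 4, in which the feedback inhibitors Nfkbia (99.64 CPM, next 66.0 CPM) and Tnfaip3 (21.92 CPM, next 11.4 CPM) were high.

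For 2 genes the genotype effect differed between stages by a test of the difference itself (edgeR's quasi-likelihood test, all 28 mice). It was higher at the Established stage by 1.265 for Tlr4 (log2 scale, adjusted p = 0.0119; 0.0282 without the 2 established males) and by 0.3824 for Myd88 (adjusted p = 0.0383; 0.0597 without these males). Stage cannot be told apart from age and sex.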

How the results depend on the processing

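Myd88 was called at the Established stage under all 10 alternatives and with each mouse left out, Tlr4 under 9, Nfkbiz under 8, Tnfaip3 under 7 and Nfkbia under 3 of the 10. Each of these counts includes scaling by total counts alone, where 95.9% of the genes called were higher. At the Established stage the count of genes called was 2177 with DESeq2, 1663 with all 28 mice in 1 fit, 560 among females, 7544 with total counts alone and from 361 (without WT replicate 1) to 1166 with 1 mouse left out, beside 1032. Members called, beside 4, were 5 with DESeq2 (Nfkbia added), 6 with total counts alone (Nfkbia and Nfkb1 added), 2 with all mice in 1 fit (Tlr4 and Myd88), 2 among females, and from 1 (without WT replicate 1 or 5) to 4 with 1 mouse left out. At the Early stage 25 genes were called with DESeq2, 11 with the replicate block and 4 to 12 with 1 mouse left out (12 without WT replicate 4), beside 6. The interaction gave 2000 genes with the replicate block and 725 without the 2 established males, beside 1195, and 1 member without these males or without a filter (Tlr4). WT mice differed between stages in 1561 genes with DESeq2, beside 935.

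The replicate block at the Established stage left 924 genes and called Myd88, Nfkbia, Nfkbiz and Tnfaip3, with Tlr4 at an adjusted p of 0.0546; 2 of 6 numbers correlated best with their own partner there, and 0 of 7 at the Early stage. Signs turned only in values that were not called: with total counts alone early Myd88 (-0.14), Nfkbia (-0.14) and Tnfaip3 (-0.0623) and established Tlr2 (0.25) and Cd14 (0.22); with 1 early mouse left out Nfkbia (-0.12 to 0.15) and Tnfaip3 (-0.0892 to 0.18); the interaction of Ly96 with the block (0.0881); and in WT mice without males Nfkbiz (0.0126) and Tnfaip3 (-0.0446). With the list median as score, 2 early relations passed and 4 macrophage correlations turned sign, those of Tlr2 (0.0942) and Ly96 (0.386) early and of Tlr2 (0.0678) and Tlr4 (0.0437) established. Of the early relations that passed, 1 was that of Tlr7 with the macrophage markers (r = 0.75, adjusted permutation p = 0.0290). With the mean as score it had r = 0.21 (adjusted permutation p = 0.574) and did not pass. The causes were not tested. Counting error is greatest for Ly96, with 17 counts in its shallowest library.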

Other observations

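Nfkb1 lies 133 kb from Slc39a8, a zinc and manganese transporter gene, on chromosome 3 (GRCm39), with 0 counted genes between them. In established Fosl-2(Tg) tendon Slc39a8 rose 11.5-fold (log2 fold change 3.53 ± 0.72, adjusted p = 0.0190 by edgeR's quasi-likelihood test) and was higher in 7 of 7 transgenic mice than in any WT mouse, while Nfkb1 had a log2 fold change of 0.09 ± 0.07 (adjusted p = 0.392). At the Early stage Slc39a8 had a log2 fold change of -0.22 ± 0.27 (adjusted p = 0.920). Slc39a8 was named after its values had been seen.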
